A study of Mus musculus with 6 samples.

Results

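Sodium pump and chloride cotransporter genes were taken here as Atp1b1, Atp1b2, Slc12a2, Slc12a5 and Slc8a1, and every probe set that the platform annotation gave to these symbols was used. A probe set is a group of short probes on an array that together read 1 transcript. The 5 genes, of 18193 with a symbol in the series, had 16 probe sets of 45137, 15 of them on array type A and 1 on array type B. The genes were chosen by function with earlier results of this contrast already in view, so those differences are a description and carry no test. The study measured mouse lumbar spinal cord at postnatal day 27. It compared mice labelled deficient for Egr3, an immediate early transcription factor needed for muscle spindles, with mice labelled wild type. Pool 1 and pool 2 were labelled Egr3-deficient and the remaining pool wild type. Each was total RNA of 3 cords from segments L3 to L5, measured once on each of the 2 array types. Labels of pool 2 and of the wild-type pool add a treatment entry of acclimatization, which pool 1 lacks. The sources used here do not give strain, sex or the Egr3 allele.

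The sodium pump is an ATPase that moves sodium out of cells and potassium in, and its beta subunits carry the catalytic alpha subunit to the membrane. Atp1b1 encodes the widespread beta 1 subunit and Atp1b2 the beta 2 subunit, which is prominent in glia. Cation-chloride cotransporters use the gradients that the pump makes. Slc12a2 encodes NKCC1, which loads cells with chloride, and Slc12a5 encodes KCC2, the neuronal transporter that extrudes chloride and thereby lets GABA and glycine inhibit mature neurons. Slc8a1 encodes NCX1, which uses the sodium gradient to export calcium.

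The targeted gene, Egr3, did not read below wild type throughout. Its probe set on A read 24.9 and 52.7 in the pools labelled Egr3-deficient and 40.6 in wild type, and its probe set on B read 210 and 107 against 75.3 (limma adjusted p = 0.986 on A and 0.348 on B). Whether its probes fall inside the altered part of the gene is not known here, so directions below rest on the labels alone. The median intensity was 50.3 and 57.9 in pools 1 and 2 against 60.1 in wild type on A, and 76.2 and 83.8 against 91.8 on B. Intensities are the deposited values in arbitrary units. Differences are pool minus wild type on the log2(intensity + 16) scale after quantile normalization, which understates the change of dim probe sets. With a single wild-type pool its own spread was not measured, and an exact permutation test of 2 pools against 1 cannot give a p below 0.333.

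Slc12a5 was of interest for an EGR motif because the related factor EGR4 is known to act on its promoter, and Slc8a1 is shown as the member with a RefSeq window that had a probe set over 2-fold below wild type in both pools. The EGR consensus GCGNGGGCG was searched on both strands from 250 bases before to 50 bases after the annotated start, in assembly GRCm38.p6. It occurred in 5.55% of the 32851 RefSeq promoter windows. It occurred in none of the 4 windows of Slc12a5, Slc8a1 and Atp1b1. Atp1b2 and Slc12a2 are named only. The upstream 250 bases of Slc8a1 (chr17:81738388-81738637, minus strand) and of both Slc12a5 starts (chr2:164960596-164960845 and chr2:164967738-164967987, plus strand) follow in lower case, where capitals would have marked the motif.
Slc8a1: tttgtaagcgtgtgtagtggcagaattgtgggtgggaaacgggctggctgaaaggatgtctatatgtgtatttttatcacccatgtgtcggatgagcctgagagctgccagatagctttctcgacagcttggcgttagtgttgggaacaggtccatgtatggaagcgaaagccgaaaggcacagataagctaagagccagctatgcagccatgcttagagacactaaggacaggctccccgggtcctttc
Slc12a5 first start: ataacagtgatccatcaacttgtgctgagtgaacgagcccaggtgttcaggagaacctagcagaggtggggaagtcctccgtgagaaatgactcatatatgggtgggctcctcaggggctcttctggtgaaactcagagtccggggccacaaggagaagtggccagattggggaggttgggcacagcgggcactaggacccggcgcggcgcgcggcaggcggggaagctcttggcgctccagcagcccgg
Slc12a5 second start: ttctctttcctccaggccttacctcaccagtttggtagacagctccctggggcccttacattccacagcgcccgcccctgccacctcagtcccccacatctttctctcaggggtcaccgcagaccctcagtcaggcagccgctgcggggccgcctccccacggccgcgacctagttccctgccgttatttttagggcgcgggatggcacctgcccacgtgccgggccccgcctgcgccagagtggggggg
The G and C content of these stretches was 50.4% for Slc8a1 and 61.2% and 67.2% for the Slc12a5 starts, and that of Atp1b1 was 70.4%.

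Slc12a2 stood well below wild type in both pools labelled Egr3-deficient with each of its 3 probe sets. Probe set 1448780_at read 59.5 in pool 1 and 126 in pool 2, against 574 in wild type. Those intensities were 9.66-fold and 4.54-fold lower than in wild type, and the differences were -2.88 and -2.08. Both pools lay far under the wild-type value, with pool 1 the lowest. Among the 13576 probe sets kept on A, it ranked 8th when probe sets were ordered by the pool with the smaller drop. Probe set 1417623_at read 82.4 and 135 against 373, with differences of -1.88 and -1.35. Probe set 1417622_at read 307 and 845 against 1530, with differences of -2.36 and -0.92. Here pool 1 minus pool 2 was -1.44, and pool 2 missed a 2-fold difference. The annotation gives all 3 Slc12a2 probe sets the same source sequence.

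Slc8a1, the sodium-calcium exchanger, had the next lowest readings and the only member probe set on B. On A, probe set 1440201_at read 58.1 and 110 in pools 1 and 2, against 450 in wild type. Its differences were -2.54 and -1.90, and it ranked 17th by the same order. On B, probe set 1437675_at read 305 and 709 against 1166, with differences of -2.07 and -0.93. Both array types thus placed pool 1 lowest and wild type highest. The other Slc8a1 probe sets were dim. Probe set 1425817_a_at read 4.02 and 12.1 against 21.9, and probe set 1420210_at read 14.4 and 10.0 against 19.0, all under the filter intensity of 36.7. They were left out of the fit, and their order among pools carries little weight.

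**Figure D1:**
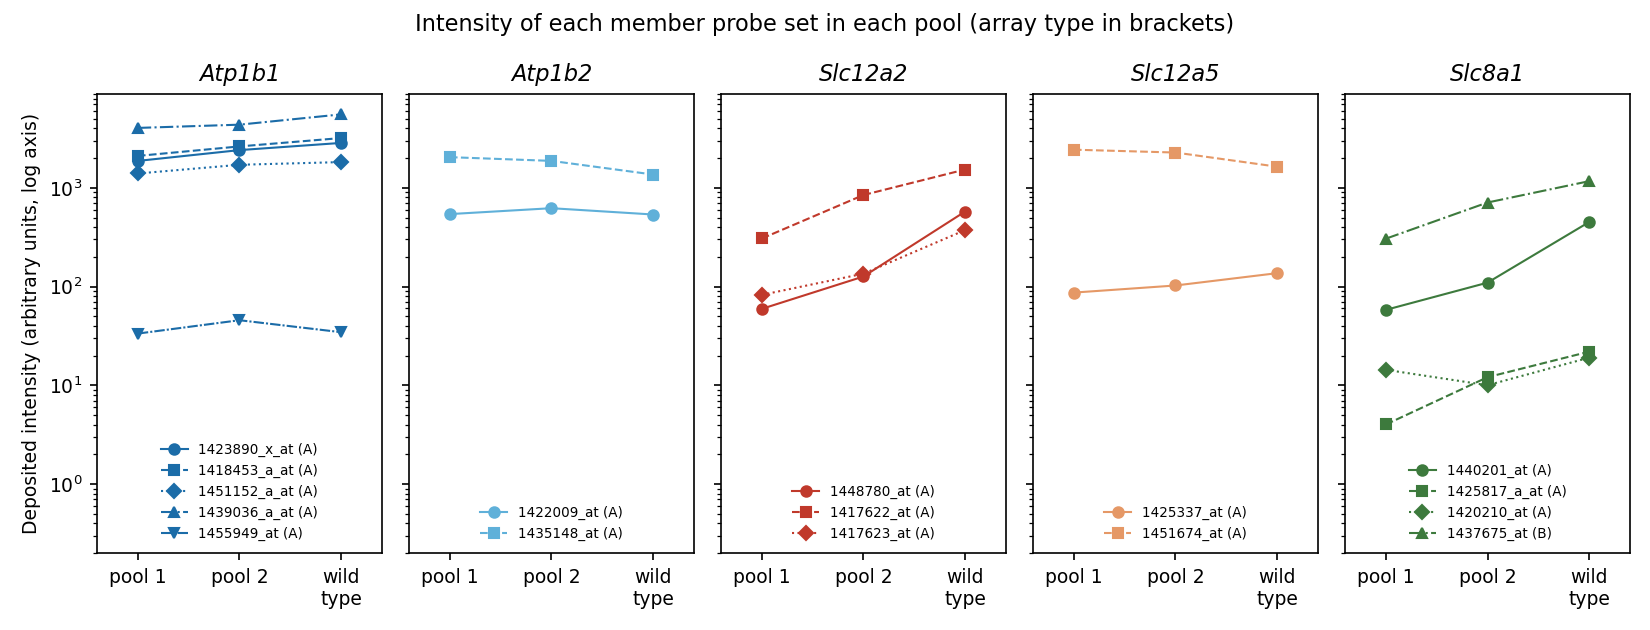
Deposited intensity on a log axis for each member probe set in pool 1 and pool 2, both labelled Egr3-deficient, and in wild type, with a panel for each gene; a line joins the points of a single probe set. All Slc12a2 and Slc8a1 probe sets are highest in wild type, while the brightest Slc12a5 probe set, at 2429 and 2273 against 1635, is lowest there.

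Atp1b1, the beta 1 subunit, was slightly below wild type with its 4 bright probe sets. Probe set 1439036_a_at read 4035 and 4352 in the pools labelled Egr3-deficient, against 5532 in wild type, and the differences of -0.36 and -0.40 were nearly equal in the pools. Probe set 1418453_a_at read 2101 and 2621 against 3186, with differences of -0.81 and -0.42. Probe set 1423890_x_at, whose suffix marks probes that may bind related sequences, read 1870 and 2406 against 2844. Probe set 1451152_a_at read 1395 and 1709 against 1819. In all 4 the pools labelled Egr3-deficient lay below wild type, with deposited intensities at most 1.52-fold lower and normalized differences down to -0.83. The dim probe set 1455949_at read 33.4 and 45.6 against 34.5, around the filter intensity, with differences of 0.15 and 0.31.

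Atp1b2, the beta 2 subunit, did not share that direction. Probe set 1435148_at read 2041 and 1871 in pools 1 and 2, against 1362 in wild type. Its differences of 0.35 and 0.35 put both pools above wild type. Probe set 1422009_at read 541 and 621 against 536, with differences of -0.03 and 0.20, so that wild type lay level with pool 1.

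Slc12a5, the neuronal chloride extruder, gave opposite directions with its pair of probe sets, although the annotation gives both the same source sequence. Probe set 1451674_at read 2429 and 2273 in the pools labelled Egr3-deficient, against 1635 in wild type, with differences of 0.39 and 0.32. Probe set 1425337_at, at the lower intensities, read 86.9 and 103 against 137, with differences of -0.43 and -0.32. In each probe set the pools labelled Egr3-deficient lay close together, with SDs of 0.053 and 0.080, and the mean differences lie 0.73 apart. Averaging the pair gave a difference of -0.012 for the gene, so its direction depends on which probe set is read.

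**Figure D2:**
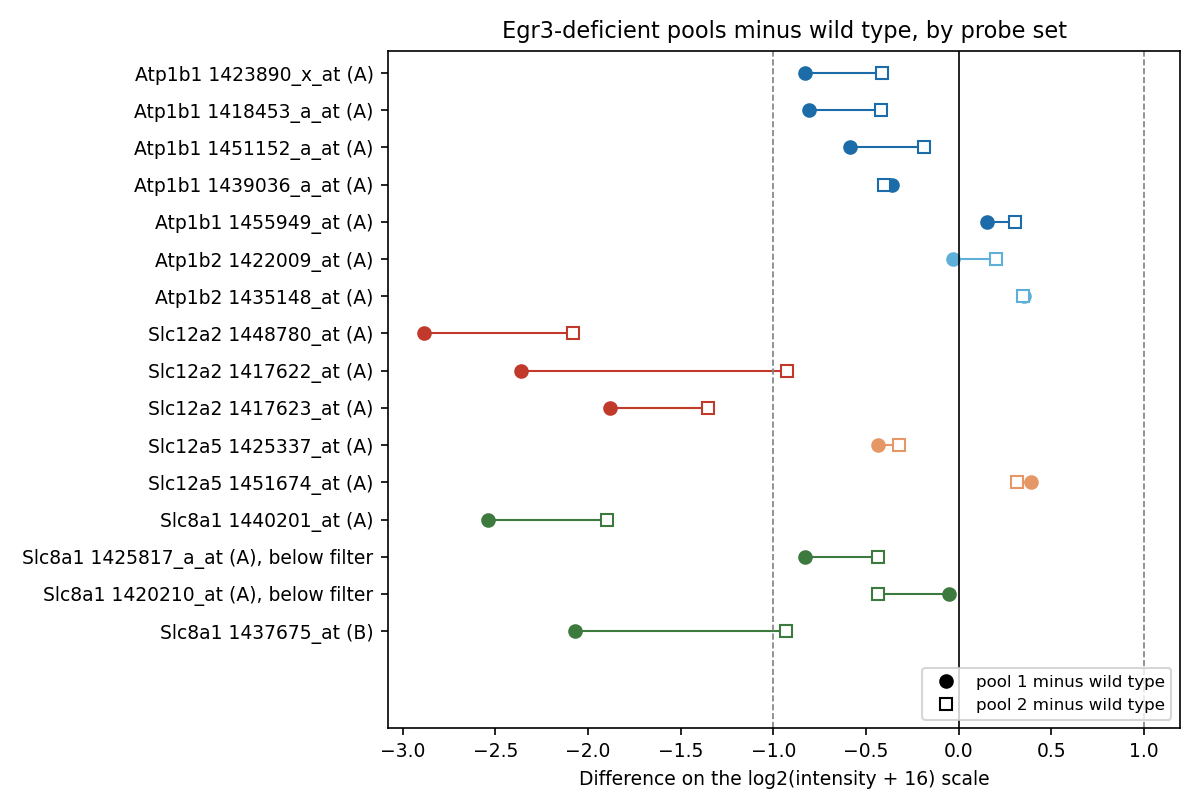
Difference from wild type on the log2(intensity + 16) scale for each of the 16 member probe sets, with filled circles for pool 1 and open squares for pool 2, and the array type in brackets. Dashed lines mark a 2-fold difference; 3 probe sets, 2 of Slc12a2 and 1 of Slc8a1, lie beyond it on the low side in both pools.

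Across the members, 12 of 16 probe sets were below wild type in both pools, 3 above in both and 1 split. The filter on low values kept 14, of which 13 were on A. Of those 13, 9 were below wild type in both pools, where 34.8% of all kept probe sets on A were. A drop of 2-fold or more in both pools was seen in 3 of the 13, against 4.35% of all on A, and 0 of the 13 were at least 2-fold higher in both, against 1.2%. The kept members on A had a median difference of -0.39, beside 0.11 for all probe sets kept there. The Slc8a1 probe set on B was below wild type in both pools, as were 36.6% there, but not 2-fold lower in both, as were 1.8%. None of the 14 was among the calls of limma at an adjusted p threshold of 0.05, which were 0% lower and 0.0663% higher on A and 0.607% lower and 1.02% higher on B. As the members were chosen on this contrast, nothing is read from these shares. Pool 1 was lower than pool 2 in 10 of the 13 kept member probe sets on A, beside 46.3% of all kept there, and in the 1 on B.

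Probe sets of a gene were also set against each other through their differences, not their levels. The mean differences of the 3 Slc12a2 probe sets ran from -2.48 to -1.62, all low. Those of Atp1b1 ran from -0.62 to 0.23, a range of 0.85, and those of its 4 bright probe sets from -0.62 to -0.38. The range was 0.27 for Atp1b2. By mean difference, no gene had kept probe sets on A more than 1 apart on the log2 scale, but Slc8a1 had only 1 kept there and so could not. Within a single pool Slc12a2 did, from -2.884 to -1.883 in pool 1 and from -2.08 to -0.924 in pool 2. The kept Slc8a1 probe sets gave -2.22 on A and -1.50 on B, and as the array types were normalized apart, the gap between them was not tested.

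Several measures of the RNA differed between the same pools. Sums and readings below are deposited intensities, while counts below or above wild type use the normalized differences, so directions can differ. Nefl on B, for example, read 11600 and 10800 against 10000, but its differences were -0.66 and -0.40. Over all kept probe sets, 34.8% on A and 36.6% on B were below wild type in both pools. On A 1.2% were at least 2-fold higher in both, and limma called 0.607% lower on B. Skeletal muscle markers summed to 4716 and 5935 in pools 1 and 2 against 189 in wild type on A, and 12 of 13 kept probe sets were at least 2-fold higher in both pools. Of the 13, 9 passed limma's threshold as higher, and these were all 9 of the calls over all probe sets on A. Liver markers on A summed to 625 and 14320 against 137. The choroid plexus is an epithelium rich in sodium pumps and NKCC1. Its markers summed to 546 and 4500 against 292 on A and to 1237 and 7184 against 513 on B, and Ttr, which liver also makes, gave most of the sum in pool 2. On A 5 of 6 kept probe sets exceeded wild type in both pools, 3 of them of Ttr. Of the others Aqp1 read 71.3 and 77.1 against 41.7, Folr1 39.4 and 44.5 against 37.3, and Sostdc1 85.6 and 126 against 118. On B, Clic6 read 104 and 110 against 57.5 with 1 probe set and 400 and 248 against 295 with another. Otx2, Kcne2 and Kl were not kept, at 22.1 or less in every pool. Neuron markers on A summed to 14640 and 15860 against 20040, with 9 of 13 probe sets below wild type in both pools, and on B to 23000 and 24170 against 21590, with 5 of 8 below. Astrocyte markers summed to 17560 and 15530 against 19110 on A and 12230 and 12940 against 12850 on B, where 5 of 6 kept probe sets were below wild type in both pools and 2 passed limma's threshold as lower. Oligodendrocyte markers summed to 69390 and 89650 against 102500 on A, where 7 of 17 probe sets were below wild type in both pools and 5 above. On B they summed to 15610 and 12930 against 13350, with 2 of 4 probe sets, both of Ermn, past limma's threshold as lower. The others, both of Mobp, were not lower. Of these, 1 read 373 and 216 against 94.0, a difference of 1.55 (limma adjusted p = 0.0689), and the other differed by 0.069. Lumbar Hox genes were present, and 3 of 4 probe sets on A were above wild type in both pools. Hoxd9 read 347 and 299 against 144 on A (limma adjusted p = 0.161), and Hoxc10 read 1070 and 1020 against 795 on B. For Gapdh control probes, 3′ over 5′ intensity was 0.858 and 0.975 against 0.734 on A and 0.923 and 0.805 against 0.755 on B. For beta-actin control probes it was 1.37 and 1.48 against 1.36 on A and 1.40 and 1.47 against 1.52 on B, where wild type was highest. The part of these in the members' differences was not tested, and in RNA of whole cord fewer cells of a type and less RNA per cell cannot be told apart.

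Other ion transport genes were taken from 5 lists with 64 genes, none of them a member, and tested in the fit over all probe sets. On A, 51 probe sets of 33 genes were kept. None passed limma's adjusted p threshold of 0.05, and at an unadjusted p under 0.05 there were 14 lower and 5 higher, where all 13576 kept probe sets gave 1730 lower and 1077 higher. Of the 51, 28 were below wild type in both pools and 18 above, and 5 lay 2-fold or more below it in both, where the shares over all kept probe sets were 34.8% and 4.35%. On B, 34 probe sets of 21 genes were kept, 13 of them below wild type in both pools, where 36.6% of all kept probe sets were. There 1 fell and 0 rose past limma's threshold, beside 0.607% lower and 1.02% higher over all. At an unadjusted p under 0.05 there were 3 lower and 0 higher, where all 13507 kept probe sets gave 923 lower and 1000 higher.

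The probe set that fell belongs to Atp2b1, a plasma membrane calcium pump that exports calcium beside the exchangers. Probe set 1428937_at read 178 and 606 in pools 1 and 2, against 1020 in wild type, which is -1.71 ± 0.46 on the log2 scale (SE, limma adjusted p = 0.0409). Both pools were below wild type, with differences of -2.51 in pool 1 and -0.91 in pool 2. Without pool 1 the difference was therefore -0.91, with no test. The SE above comes mostly from the prior over probe sets, not from the gap between these pools. The other Atp2b1 probe sets read 174 and 423 against 683, a difference of -1.39 (limma adjusted p = 0.103), and 460 and 754 against 879, a difference of -0.76 (limma adjusted p = 0.421). The call was lost under 7 of 10 alternatives, among them no quantile normalization, median centring and no filter, where the adjusted p reached 0.474. Slc8a3, another sodium-calcium exchanger, read 438 and 771 against 763 on B and did not pass. Slc8a2 was not kept on either array type. It read 106 and 41.7 against 7.94 on B, above wild type in both pools, and at most 1.83 on A. Atp2b2, a calcium pump gene, differed by -0.46, -0.29 and 0.01 with its 3 probe sets on A. Slc8b1, the mitochondrial exchanger gene, read 85.8 and 72.6 against 73.0 there. On B, Atp2b4 (0.94) and Slc24a4 (0.66), a potassium-dependent sodium-calcium exchanger gene, were above wild type in both pools without passing.

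Other sodium pump subunits and FXYD proteins, small membrane proteins that tune the pump, gave no call on A. Their 9 kept probe sets had a median difference of 0.69, and 6 of them exceeded wild type in both pools while 3 lay under it. Over all kept probe sets on A the median was 0.11, and 34.8% lay under wild type in both pools. Fxyd6 read 276 and 291 in the pools labelled Egr3-deficient, against 135 in wild type, which is 1.05 ± 0.31 on the log2 scale (SE, limma adjusted p = 0.167). Fxyd1, which encodes phospholemman, read 513 and 551 against 274 (0.93), and Fxyd7, a brain member, read 497 and 391 against 258 (0.76). Fxyd2, the gamma subunit known from kidney, read 47.8 and 50.5 against 115 with 1 probe set and 47.2 and 62.3 against 118 with another. Atp1b3, the beta 3 subunit, read 813 and 1070 against 1240, a difference of -0.52 (limma adjusted p = 0.316). Fxyd5 (0.69), Fxyd3 (0.78) and Fxyd4 (0.22) were above wild type without passing. Atp1a4, a catalytic subunit of sperm, read 6.41 and 96.7 against 7.24 on B and was not kept. Further catalytic subunits were not analysed here.

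The other SLC12 cotransporters had 2 kept probe sets, both above wild type in both pools and neither past the test. Slc12a9, a relative of the family with no settled transport role, read 146 and 151 in pools 1 and 2, against 85.8 in wild type. Slc12a4, which encodes KCC1, read 102 and 111 against 85.5. Slc12a7, which encodes KCC4, was not kept and its probe sets went opposite ways, at 22.8 and 42.1 against 4.44 and at 23.5 and 29.6 against 49.3. The kidney cotransporter genes Slc12a1 and Slc12a3 read at most 20.0 in any pool.

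The kinases that set cotransporter activity and their partners gave no call on A or B. WNK kinases activate SPAK, encoded by Stk39, which phosphorylates NKCC1 and KCC2, and Cab39 is a scaffold of SPAK. Of 16 kept probe sets on A, 11 lay below wild type in both pools, 3 lay above it in both, and the median was -0.73. Among all probe sets kept there, 34.8% lay below in both, and the median was 0.11. Cul3, the ubiquitin ligase scaffold that limits WNK levels, had the lowest 3: -1.90, -1.84 and -1.57, each with a limma adjusted p = 0.161. Its probe set 1422794_at read 76.0 and 124 against 331. On B its 2 probe sets gave -0.75 and -0.34. Wnk1 read 584 and 768 against 1230 with its brightest probe set (-0.95, limma adjusted p = 0.170), and Cab39 read 110 and 122 against 288. Stk39 differed by -0.59 and -0.60 with its 2 kept probe sets on A, the latter from -1.17 in pool 1 and -0.04 in pool 2. Sgk1, a kinase that stimulates sodium transport, was above wild type at 1410 and 1690 against 928 (0.61, limma adjusted p = 0.231). On B, Wnk3 read 210 and 295 against 394, Nedd4l 130 and 172 against 240 with its lowest probe set, and Wnk1 96.4 and 168 against 264. The other kept Nedd4l probe sets differed by 0.27, 0.22 and -0.085 on B and by 0.50 on A.

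Among sodium-proton, bicarbonate and chloride transporters, 12 of 19 kept probe sets on A were below wild type in both pools and none passed. The share below in both over all probe sets kept there was 34.8%. The sodium-bicarbonate cotransporter gene Slc4a4 read 94.9 and 180 in pools 1 and 2, against 391 in wild type (-1.42, limma adjusted p = 0.161), and 179 and 395 against 558 with its other kept probe set. On B it read 1710 and 2280 against 2760, a difference of -0.88. Clcn3, an endosomal chloride-proton exchanger gene, read 95.3 and 141 against 284, and Slc4a10, a sodium-dependent bicarbonate transporter gene of neurons, 99.1 and 199 against 382. The list's median was -0.52 on A and -0.007 on B. On B, Slc4a8 differed by 0.87, -0.66 and -0.25 with its kept probe sets. There Slc9a5, a sodium-proton exchanger gene, lay 0.81 above wild type.

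**Figure D3:**
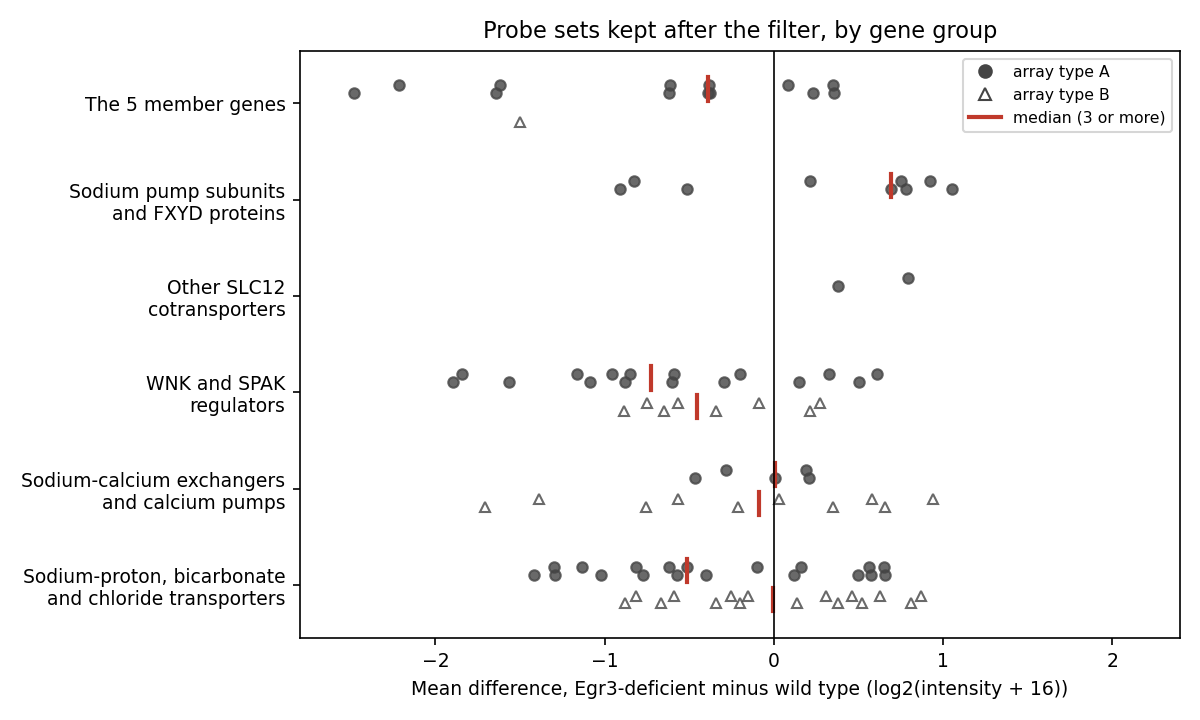
Mean difference of the pools labelled Egr3-deficient from wild type for each kept probe set, by gene group, with filled circles for array type A, open triangles for B and red bars for medians of 3 or more. The member genes, chosen with this contrast in view, reach the lowest values on A, down to -2.48. Most sodium pump subunits and FXYD proteins lie above 0, with a median of 0.69.

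Likeness to a member was measured, within its array type, as the Euclidean distance over the pool 1 and pool 2 differences, so over 3 arrays that share the wild-type pool. The brightest Slc12a2 probe set, 1417622_at, had Dhx36 as its nearest gene at a distance of 0.028, then Vbp1 and Yme1l1. Slc8a1 on B had Lnpk at 0.013, then Megf9 and Meg3. Atp1b1 had Ncbp2, Rgs14 and Acly, all within 0.016, Atp1b2 had Atp6v0a2, Bsg and Gabrp, all within 0.007, and Slc12a5 had Sod2, Psma7 and Usp5, all within 0.0083.

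The members kept their directions when the arrays were scaled in other ways. Over quantile normalization, none, median centring, scaling on shared probe sets and pseudocounts of 1 and 64, no kept member probe set changed sign, while the median of all kept probe sets ran from 0.054 to 0.175 on A and from -0.66 to 0.083 on B. Across all settings the mean difference of Slc12a2 probe set 1448780_at ran from -2.88 to -2.05 and that of Slc8a1 probe set 1440201_at from -2.54 to -1.79. Other members moved more: Slc12a2 probe set 1417622_at ran from -2.36 to -0.92 and Slc8a1 probe set 1437675_at from -2.07 to -0.93, both ends being a single pool. Atp1b1 probe set 1451152_a_at ran from -0.59 with pool 1 alone to -0.11 with median centring. Leaving out pool 2 turned Atp1b2 probe set 1422009_at to -0.031.

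**Figure D4:**
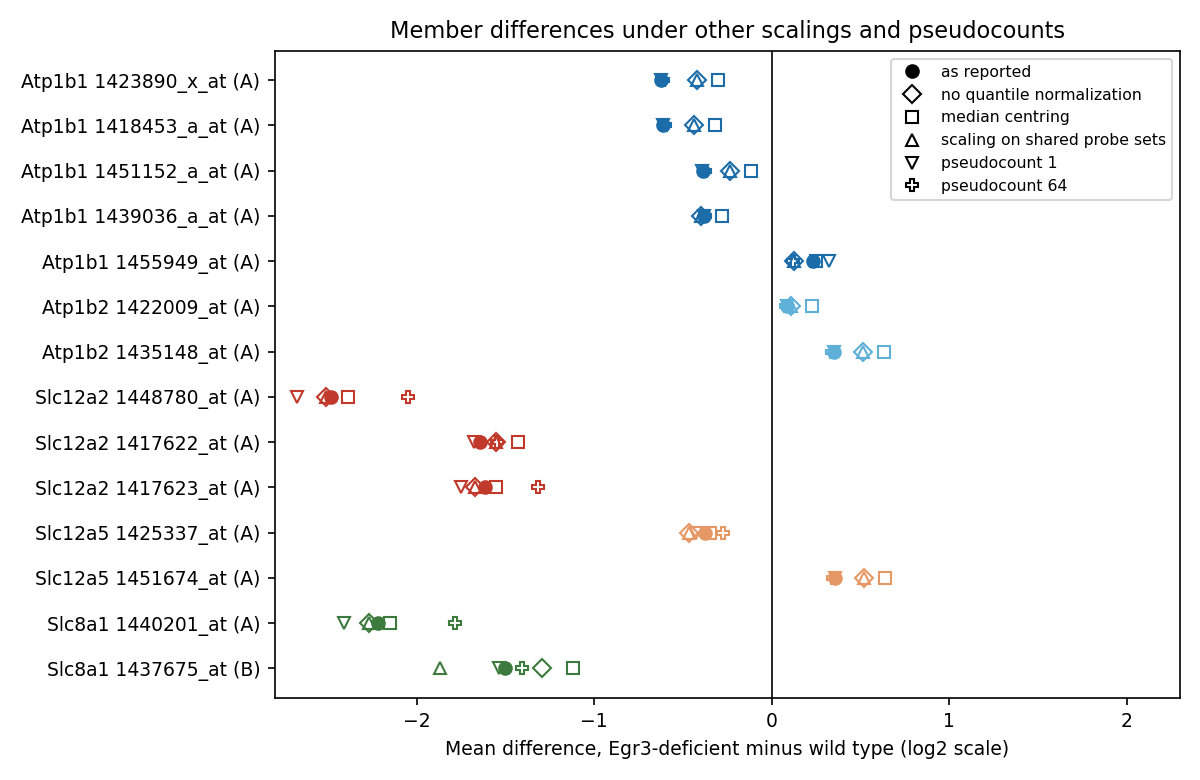
Mean difference of the pools labelled Egr3-deficient from wild type for each kept member probe set as reported (filled circles) and under 5 other scalings or pseudocounts (open symbols). Every symbol stays on its own side of 0, the opposite Slc12a5 probe sets included, which are reported at 0.36 and -0.38.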

How the data were processed

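The deposited files hold an intensity on a linear scale for every probe set, 1 column per array. The values were found to have a mean of 150.1 on each A array and 150.0 on each B array after trimming 2% from each tail. The sources used here do not name the software that made them. Symbols came from the platform annotation and were updated through RefSeq (GRCm38.p6). Control probe sets, 64 on each array type, were left out. Each array type was analysed alone: log2(intensity + 16), quantile normalization, a filter at the 40th percentile of the mean (13576 probe sets kept on A, 13507 on B), then limma 3.58.1 in R 4.3.3 with an intensity trend and Benjamini-Hochberg adjustment. With 1 residual degree of freedom, the prior across probe sets sets most of each SE and so of each p-value. That degree of freedom comes from the gap between the 2 pools labelled Egr3-deficient, so p-values include no measured spread of wild type. The fit was tested on simulated data. The number of arrays limits precision. Members and lists were chosen with earlier results of these data known. The text names all member probe sets, calls, the 3 list probe sets with the largest smaller-of-2 difference per list and array type, and kept sodium pump subunits; other list genes given were chosen after their values were seen.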

Additional observations from a re-analysis of the deposited data

How the results depend on the processing

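Calls over all probe sets depended strongly on the setting. On A, 0 lower and 9 higher became 597 and 227 under median centring. On B, 82 lower and 138 higher became 0 and 0 with no filter, eBayes without trend or scaling on shared probe sets. Of the other ion transport probe sets on A, 4 passed under median centring (3 of Cul3, 1 of Slc4a4) and 0 under every other alternative run. On B, where 1 passed as reported, the count was 2 with a filter at the 60th percentile and with robust eBayes, both of Atp2b1, and 1 with a pseudocount of 64. It was 0 with no quantile normalization, median centring, scaling on shared probe sets, a pseudocount of 1, no filter, eBayes without trend and adjustment over both array types. Members at least 2-fold lower in both pools numbered 3 on A under every scaling, pseudocount and filter. With a replicate left out, the count is of the remaining pool alone, and it was 3 to 4. On B the count of 0 became 1 with scaling on shared probe sets, where all kept probe sets had a median of -0.66. With a replicate left out, the count in the remaining pool alone was 0 to 1 there. The count of genes with probe sets over 1 apart on A was 0 as reported and 1 with no filter (Slc8a1). It was 1 (Slc12a2) when either replicate was left out. Signs turned for Atp1b2 probe set 1422009_at without replicate 2 (-0.031; without replicate 1 it was 0.20) and for Slc12a5 when its probe sets were averaged (-0.012 in place of 0.36). Under median centring 4 member probe sets, 3 of Slc12a2 and 1 of Slc8a1, passed limma's threshold on A, where 597 lower and 227 higher of 13576 probe sets did, and the Slc8a1 probe set passed on B with a pseudocount of 64, the stricter filter and robust eBayes, settings that called 170 to 195 probe sets lower and 168 to 201 higher there; the causes were not tested. Leaving out a replicate leaves no residual degrees of freedom, so those values have no test. No paired analysis was possible because wild type has a single pool.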
